A study of Mus musculus with 24 samples.

Results

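In B16F10-luc2 mouse melanoma cells, 51 of the 12010 genes in the expression table were nearly silent in the parental cells and were expressed once MITF and TFEB had both been knocked out. They were selected on their own levels: a mean of at most 0.3 CPM (counts scaled to a common library size) in the 3 parental libraries, and a mean of at least 3 CPM in both the MITF/TFEB double knockout (DKO) and the MITF/TFEB/TFE3 triple knockout (TKO). Acta2, Tagln, Tagln2, Ntrk3 and the collagen, laminin, integrin, Mmp, Timp, Adamts and Gst genes were left out by name. This removed Acta2 and Col6a3 from the 53 genes that passed the thresholds. The contrast that chose the genes (parental against MITF/TFEB DKO and TKO) is therefore given as values without a test. The tests below use the 5 lines whose values took no part in the choice. Among these, the MITF KO and MITF/TFE3 DKO share the loss of MITF with the chosen lines, so they are not independent of the choice. The background is 281 genes at a parental mean of at most 0.3 CPM, of which 230 were not chosen.

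B16F10-luc2 is a luciferase-marked B16-F10 line, a transplantable melanoma of the C57BL/6 mouse. 8 lines were sequenced, with 3 libraries each: the parental cells, a TFE3 KO, a TFEB KO, a TFEB/TFE3 DKO, an MITF KO, an MITF/TFE3 DKO, an MITF/TFEB DKO and the TKO. All were cultured in DMEM with 10% serum and no treatment was compared. The MITF KO line carries a frameshift in Mitf, and the TFEB and TFE3 knockouts were made by CRISPR ribonucleoprotein in the parental cells or in the MITF KO line. The 4 lines without MITF thus share an ancestor, each knockout line is a clone, and genotype and clone cannot be told apart. Whether the 3 libraries of a line came from separate cultures is not stated, so p-values measure the spread between these libraries, which may be technical.

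MITF, TFEB and TFE3 are basic helix-loop-helix leucine zipper factors that bind as dimers to the CACGTG and CATGTG E-boxes and to the longer CLEAR box of lysosomal genes. MITF is the lineage factor of melanocytes and sets their pigment and proliferation programs, while TFEB and TFE3 are held in the cytoplasm by mTORC1 when nutrients are plentiful and drive lysosomal and metabolic genes when released. Melanoma cells with low MITF are known to lean toward invasive, neural crest-like states. A gene silent in one such state is commonly kept off by closed chromatin or by lack of its activator, and RNA levels alone do not separate these.

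Libraries held 18300902 to 26667877 reads, so that 3 reads corresponded to 0.109 to 0.163 CPM. The 8 melanocyte markers (Mlana, Pmel, Tyr, Tyrp1, Dct, Sox10, Mitf and Slc45a2) were at 1 CPM or more in every line. Their summed level ran from 26511 to 27386 CPM in the parental libraries and from 17230 to 19705 CPM in those of the MITF/TFEB DKO. In the TKO libraries it ran from 15868 to 16908 CPM. Dct made up most of the sum, at 17751, 14551 and 13042 CPM in the parental cells, the MITF/TFEB DKO and the TKO. In the same lines Pmel was at 3771, 940 and 551 CPM and Tyrp1 at 2571, 1283 and 1078 CPM. Mlana was at 799, 248 and 183 CPM and Slc45a2 at 409, 60.7 and 48.2 CPM. Tyr was at 131, 12.8 and 8.35 CPM, while Sox10 rose from 731 to 1053 and 1006 CPM. Mitf RNA itself was at 776 CPM in the parental cells, 1397 CPM in the MITF KO, 1192 CPM in the MITF/TFE3 DKO, 580 CPM without MITF and TFEB and 335 CPM in the TKO. In the same order Tfeb RNA was at 8.8, 18.3, 11.3, 3.19 and 3.1 CPM, and Tfe3 RNA at 37.1, 51.7, 8.63, 56.4 and 19.8 CPM. Reads from the 3′ end do not check a frameshift or an indel further upstream, so these levels do not check the genotypes. From the study's immunoblots, the MITF KO line may retain a little of a shortened MITF protein.

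The 51 genes together had 3 tiers of expression, as the plot of every library shows: cells with MITF, cells without MITF, and cells without MITF and TFEB. Their summed level was 5.03 CPM in the parental cells and 5.51, 5.74 and 8 CPM in the TFE3 KO, the TFEB KO and their DKO. It was 74.9 CPM in the MITF KO and 85.4 CPM in the MITF/TFE3 DKO. Dbh alone was at 11.2 CPM in the MITF KO. Much of the sum in the MITF/TFE3 DKO came from Zfp985, Dbh and Hapln1, at 18.6, 12.8 and 9.72 CPM. The lines in which the rule required expression, the MITF/TFEB DKO and TKO, had 638 and 543 CPM. Single libraries of the 4 lines with MITF summed to between 4.46 and 10.6 CPM and those of the MITF KO and MITF/TFE3 DKO to between 69.6 and 88.6 CPM, with no overlap. The highest of the first range was TFEB/TFE3 DKO replicate 2, at 10.6 CPM against 6.11 and 7.24 CPM in the rest of that line.

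**Figure D1:**
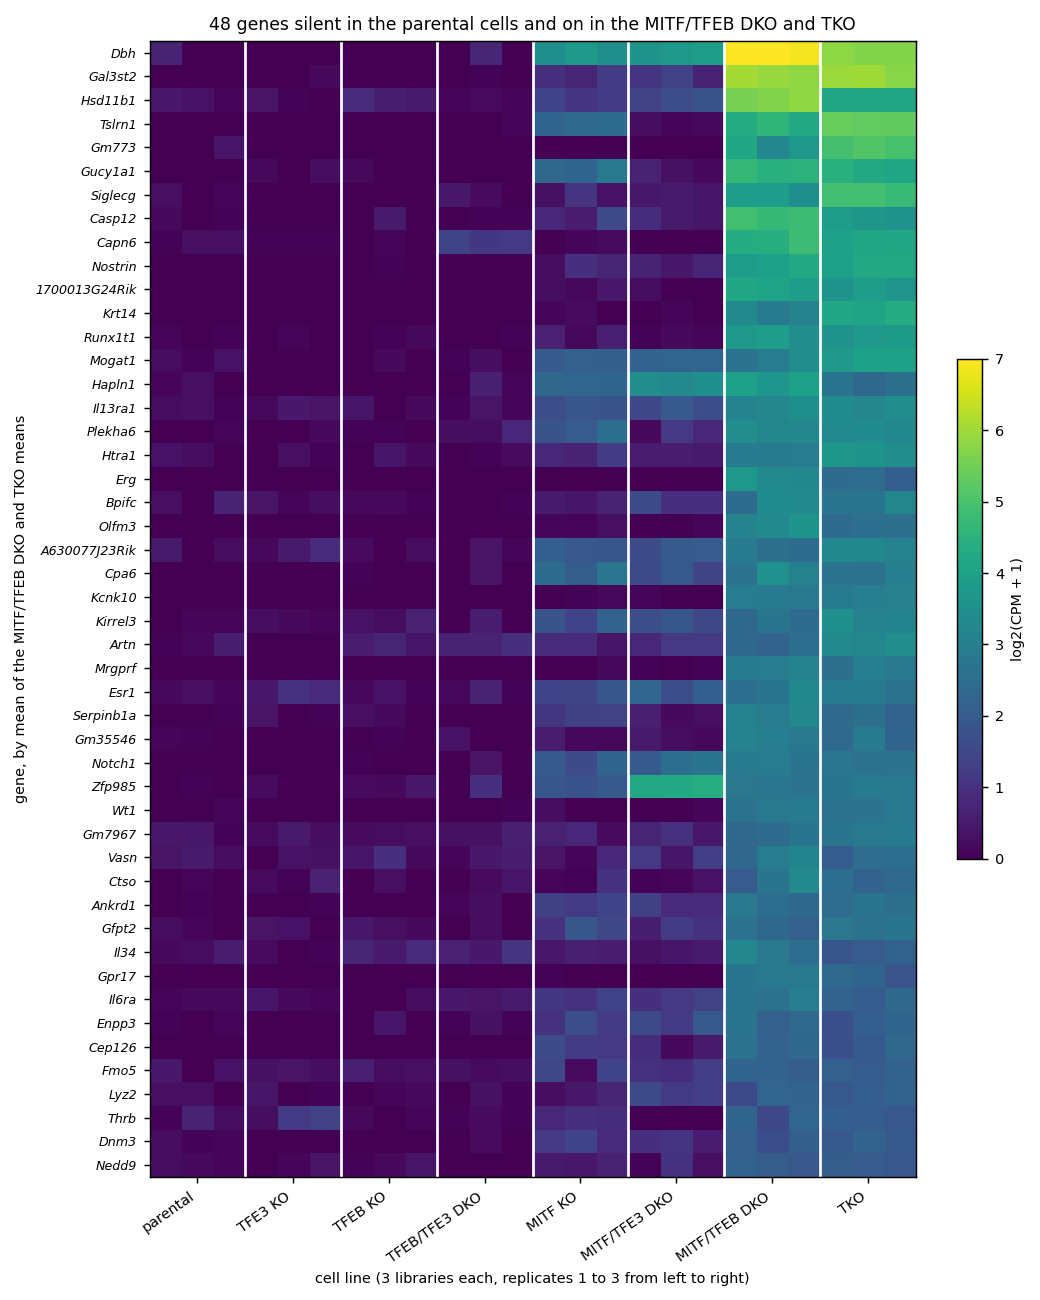
Level of 48 of the 51 genes in each of the 24 libraries as log2(CPM + 1), with genes in rows and libraries in columns grouped by line. The 12 columns of lines with MITF are dark, near 0, almost throughout, the 6 columns of the MITF KO and MITF/TFE3 DKO are brighter for part of the genes, and the 6 columns of the MITF/TFEB DKO and TKO are brighter for every gene shown, as the rule required.

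Loss of TFEB, of TFE3 or of both in cells with MITF left the genes low: none of the 51 reached 3 CPM in the TFE3 KO, the TFEB KO or the TFEB/TFE3 DKO, and 47, 44 and 42 stayed at a mean of at most 0.3 CPM. In the MITF KO 7 reached 3 CPM, 32 lay between 0.3 and 3 CPM and 12 stayed at or below 0.3 CPM, with a median of 0.906 CPM. The MITF/TFE3 DKO was similar, with 6, 29 and 16 genes and a median of 0.547 CPM. Among the 230 other genes silent in the parental cells, 10 (4.35%) reached 3 CPM in the MITF KO and 7 (3.04%) in the MITF/TFE3 DKO. The medians in the MITF/TFEB DKO and TKO, fixed in part by the rule, were 6.51 and 5.91 CPM. For the median gene the level in the MITF KO was 12.6% of that in the MITF/TFEB DKO, and the level in the MITF/TFE3 DKO was 7.06%.

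**Figure D2:**
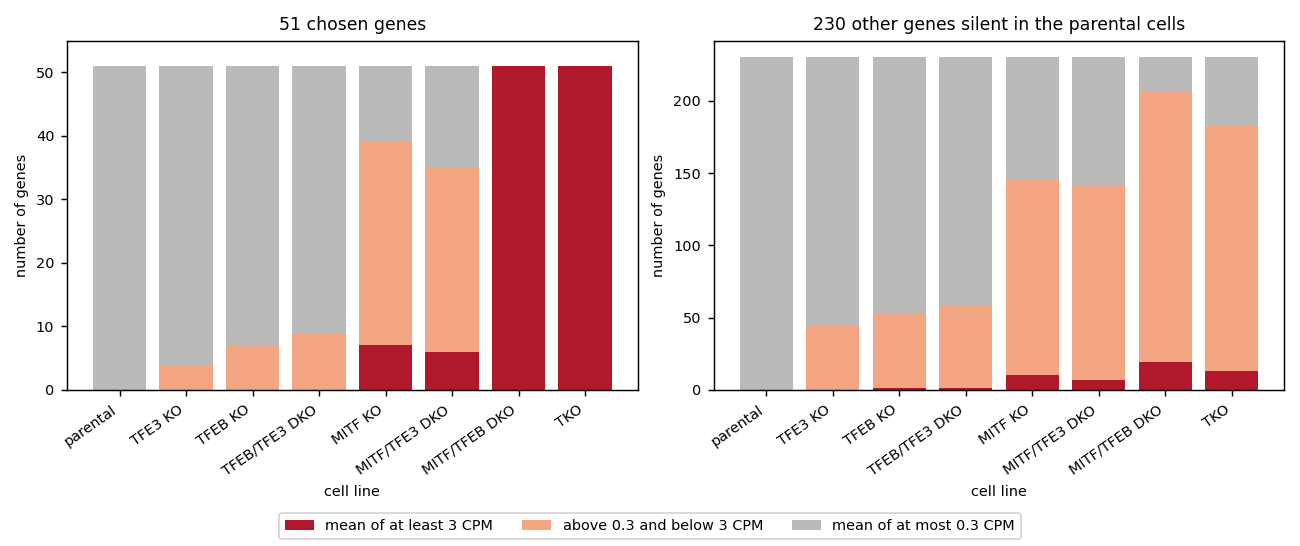
Number of genes with a mean of at least 3 CPM, between 0.3 and 3 CPM, or at most 0.3 CPM in each line (n = 3 libraries), for the 51 chosen genes at the left and the 230 other genes silent in the parental cells at the right. None of the 51 is at 3 CPM in the lines with MITF, where at most 1 of the 230 is in any line. In the MITF KO 7 are and in the MITF/TFE3 DKO 6, against 10 and 7 of the 230. The parental, MITF/TFEB DKO and TKO bars of the left panel are fixed by the rule.

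The genes fell into groups by where else they were expressed. Dbh, Hapln1 and Mogat1 reached 3 CPM in both the MITF KO and the MITF/TFE3 DKO, Cpa6, Gucy1a1, Plekha6 and Tslrn1 in the MITF KO alone, and Esr1, Notch1 and Zfp985 in the MITF/TFE3 DKO alone, while 41 reached it in neither. A set of 10 stayed at a mean of at most 0.3 CPM in all 5 other lines: 1700013G24Rik, Erg, Gm35546, Gm773, Gpr17, Kcnk10, Krt14, Mrgprf, Olfm3 and Wt1. A further 15 exceeded 0.3 CPM in at least one knockout line with MITF, the highest of them Capn6 at 1.37 CPM in the TFEB/TFE3 DKO and Thrb at 1.01 CPM in the TFE3 KO. The highest of the 8 line means was in the MITF/TFEB DKO for 30 genes, in the TKO for 20 and elsewhere only for Zfp985. Across the 51 genes the levels ranked alike in the MITF KO and the MITF/TFE3 DKO (Spearman's rho 0.753) and in the MITF/TFEB DKO and TKO (0.695), but not in the MITF KO and the MITF/TFEB DKO (0.0093). These are descriptions over genes measured in the same libraries, not over independent replicates. The rule bounded the levels in the MITF/TFEB DKO and TKO from below and not those in the MITF KO. The rho values are therefore not directly comparable.

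The promoter windows of 5 of the genes are shown because the factors removed are E-box binders: one gene with the highest level and no such box, 2 with the CACGTG E-box, one with the CATGTG E-box, and one with an AP-1 site. Each runs 5′ to 3′ on the gene's strand from 250 bases before to 50 bases after the start of the annotation's canonical transcript (GRCm39, GENCODE vM39), and capitals mark the matched motif. The Dbh window (chr2:27054995-27055294, plus strand) holds neither E-box. Thrb (chr14:4488118-4488417, minus strand) has CACGTG from position -78 relative to the start. Il6ra (chr3:89820454-89820753, minus strand) has CACGTG from -24 followed directly by CATGTG from -18. Hsd11b1 (chr1:192924888-192925187, minus strand) has CATGTG on the opposite strand, read here as CACATG, from -133. Krt14 (chr11:100098441-100098740, minus strand) has the AP-1 site from -63. The annotated genes Thrb (4429815-4809435) and Hsd11b1 (192903918-192946489) extend well upstream of their windows. Reads from the 3′ end do not show which start was in use.
Dbh: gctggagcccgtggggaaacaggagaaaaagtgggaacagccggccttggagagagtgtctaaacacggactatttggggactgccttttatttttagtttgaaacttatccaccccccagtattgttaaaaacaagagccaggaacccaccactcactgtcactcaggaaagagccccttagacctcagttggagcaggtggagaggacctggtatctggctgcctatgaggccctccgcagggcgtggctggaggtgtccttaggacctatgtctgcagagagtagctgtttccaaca
Thrb: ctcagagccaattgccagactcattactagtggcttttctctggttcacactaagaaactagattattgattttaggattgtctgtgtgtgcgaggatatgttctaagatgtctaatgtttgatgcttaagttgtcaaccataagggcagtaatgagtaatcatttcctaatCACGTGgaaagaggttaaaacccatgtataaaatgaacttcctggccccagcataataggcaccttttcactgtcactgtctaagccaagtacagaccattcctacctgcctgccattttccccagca
Il6ra: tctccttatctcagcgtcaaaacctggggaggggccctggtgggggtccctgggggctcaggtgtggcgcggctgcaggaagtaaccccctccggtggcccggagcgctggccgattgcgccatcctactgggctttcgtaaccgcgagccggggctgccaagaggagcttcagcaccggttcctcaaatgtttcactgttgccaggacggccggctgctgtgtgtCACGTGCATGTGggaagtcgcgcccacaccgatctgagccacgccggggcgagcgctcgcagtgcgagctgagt
Hsd11b1: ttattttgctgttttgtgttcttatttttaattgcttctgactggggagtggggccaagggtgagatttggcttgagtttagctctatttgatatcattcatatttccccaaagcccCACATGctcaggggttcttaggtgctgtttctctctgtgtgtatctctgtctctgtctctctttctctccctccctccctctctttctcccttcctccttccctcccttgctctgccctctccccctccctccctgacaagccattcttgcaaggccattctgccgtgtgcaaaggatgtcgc
Krt14: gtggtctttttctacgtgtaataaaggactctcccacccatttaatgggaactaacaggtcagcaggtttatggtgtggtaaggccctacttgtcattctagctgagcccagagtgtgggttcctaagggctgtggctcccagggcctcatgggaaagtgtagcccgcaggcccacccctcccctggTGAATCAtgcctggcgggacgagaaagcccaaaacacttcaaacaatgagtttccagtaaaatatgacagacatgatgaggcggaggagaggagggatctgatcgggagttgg

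The shares of windows that held an E-box depended on its core. CACGTG lay in 3 of the 50 members' windows (6%), Thrb and Il6ra among them, in 5.96% of the 218 windows of other genes silent in the parental cells and in 10.2% of all 11659 windows. The CLEAR box, searched as TCACGTGA and thus overlapping CACGTG, lay in none of the members' windows and in 1.74% of all windows. CATGTG lay in 6 (12%; Hsd11b1, Bpifc, Il6ra, Olfm3, Il34 and Gm773), against 14.2% and 8.84%. CAGCTG, the E-box core bound by many other basic helix-loop-helix factors, lay in 12 (24%), against 20.6% and 13.6%. The AP-1 site TGANTCA, the site of FOS and JUN dimers, lay in 5 (10%; Cpa6, Bpifc, Gfpt2, Krt14 and Capn6), against 6.88% and 5.11%, and the TEAD site GGAATG in 12 (24%), against 19.7% and 13.1%. The TATA box TATAAA lay in 8 (16%), against 9.17% and 7.57%, and the GATA site AGATAA in 9 (18%), against 11% and 7.39%. Both strands were searched. A match is a description of letters, and a window without one says nothing about binding of the factor, there or further away.

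CpG content of the windows was lower than in the rest of the table. A window with GC of at least 50% and an observed over expected CpG of at least 0.6 was found for 6 members (12%; Notch1, Il6ra, Runx1t1, Htra1, Cep126 and Kirrel3), for 20.2% of the other silent genes and for 61% of all genes. The median observed over expected CpG was 0.286 for the members, 0.34 for the other silent genes and 0.723 for all. The Il6ra window shown above, at 0.769, is thus the exception among the printed windows, which otherwise ranged from 0.116 to 0.296.

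Dbh, dopamine beta-hydroxylase, the enzyme of sympathetic neurons and adrenal medulla that makes noradrenaline from dopamine, had the highest level. Its libraries stood at 129, 131 and 116 CPM in the MITF/TFEB DKO and at 54.6, 50.8 and 50.8 CPM in the TKO. In the MITF KO they stood at 10.5, 12.5 and 10.5 CPM and in the MITF/TFE3 DKO at 11.4, 12.8 and 14.1 CPM. Of the 12 libraries with MITF, 10 had no read, and one parental and one TFEB/TFE3 DKO library were at 0.604 and 0.677 CPM. The gene thus had 3 separate levels, near 0 with MITF, from 10.5 to 14.1 CPM without it, and higher again without MITF and TFEB. It lies at chr2:27055245-27074212 on the plus strand, and no annotated gene overlaps its end.

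Gal3st2, a galactose sulfotransferase that acts on glycan chains, was at 65.5, 59.9 and 55.9 CPM in the MITF/TFEB DKO and at 60.3, 63.4 and 52.9 CPM in the TKO, with overlapping libraries. The MITF KO libraries were at 0.942, 0.643 and 1.31 CPM, the MITF/TFE3 DKO libraries at 1.12, 1.55 and 0.594 CPM, and every parental library at 0 reads. Against 3 reads per parental library this is at least 443-fold higher in the MITF/TFEB DKO and at least 432-fold higher in the TKO, the widest bound among the 14 members with no parental read. Close copies lie beside it on chromosome 1, so its reads could be shared with them and its level is uncertain.

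Hsd11b1 makes active glucocorticoid from its inert form and is best known in liver and fat. It was at 46.5, 49.7 and 56.2 CPM in the MITF/TFEB DKO, at 16.9, 16.6 and 16.6 CPM in the TKO, at 1.08 to 1.65 CPM in the MITF KO and at 1.54 to 2.47 CPM in the MITF/TFE3 DKO. Casp12, an inflammatory-group caspase of the endoplasmic reticulum, had a similar shape at 28.2, 25 and 27.1 CPM against 13.7, 12.1 and 11.2 CPM in the TKO, and at most 1.91 CPM in any other library. Capn6, a calpain without protease activity that stabilises microtubules, was at 19.1, 19.4 and 26.8 CPM and at 15, 16.2 and 17.1 CPM, but was at most 0.163 CPM in the MITF KO and without a read in the MITF/TFE3 DKO. For all 3 the TKO libraries lay below every MITF/TFEB DKO library.

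Tslrn1, a long non-coding RNA of the X chromosome, had no read in 11 of the 12 libraries with MITF. Its MITF KO libraries stood at 3.77, 4.22 and 4.47 CPM, those of the MITF/TFE3 DKO at 0.208, 0.0942 and 0.137 CPM, those of the MITF/TFEB DKO at 18.7, 22.9 and 17.6 CPM and those of the TKO at 40.7, 39.1 and 38 CPM. Gm773, a protein coding gene of the same chromosome with no characterised role, was at 17.2, 8.52 and 12.3 CPM and at 29.8, 33.4 and 30 CPM in the last 2 lines and had no read in the MITF KO or the MITF/TFE3 DKO. Siglecg, a sialic acid-binding inhibitory receptor of B cells, was at 14.3, 13.9 and 10.2 CPM and at 29, 28.9 and 25.3 CPM, and at most 1.12 CPM elsewhere. These 3 were higher in every TKO library than in every MITF/TFEB DKO library.

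Gucy1a1, a subunit of the soluble guanylate cyclase that senses nitric oxide, was at 24.5, 20.7 and 21.4 CPM in the MITF/TFEB DKO, at 20.8, 17.9 and 16.6 CPM in TKO libraries and at 4.14, 3.82 and 6.05 CPM in MITF KO libraries. With TFE3 absent as well as MITF it was at 0.623, 0.236 and 0.137 CPM. Nostrin, which binds endothelial nitric oxide synthase, was at 13.3, 14.6 and 18.6 CPM and at 14.4, 17.6 and 17.7 CPM, and at most 0.924 CPM elsewhere. The opposite-strand neighbour at its end, Spc25, was at 137 to 201 CPM on the mean of every line. 1700013G24Rik, of no known role, was at 17.4, 16 and 14.3 CPM and at 11.4, 14.3 and 11.6 CPM, with at most 0.381 CPM elsewhere. The libraries of the MITF/TFEB DKO and the TKO overlapped for Gucy1a1, Nostrin and 1700013G24Rik.

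Krt14, the type I keratin of basal epidermal cells, was at 8.98, 6.51 and 7.72 CPM in the MITF/TFEB DKO and at 16.9, 16.1 and 19.3 CPM in the TKO, with no read in any of the 12 libraries with MITF and at most 0.161 CPM in the MITF KO. Of the 8 epithelial markers only Krt14 and Cdh1 were in the table, and Cdh1 was at between 0.863 and 1.22 CPM in the MITF/TFEB DKO, between 0.285 and 0.838 CPM in the TKO and between 0.899 and 1.41 CPM in the parental libraries. Another keratin, Krt81, was just below the level threshold, at 0.149 CPM in the parental cells and 2.8 and 3.8 CPM in the lines without MITF and TFEB. Runx1t1, a transcriptional corepressor, had means of 12.2 CPM in both lines and at most 0.41 CPM elsewhere.

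**Figure D3:**
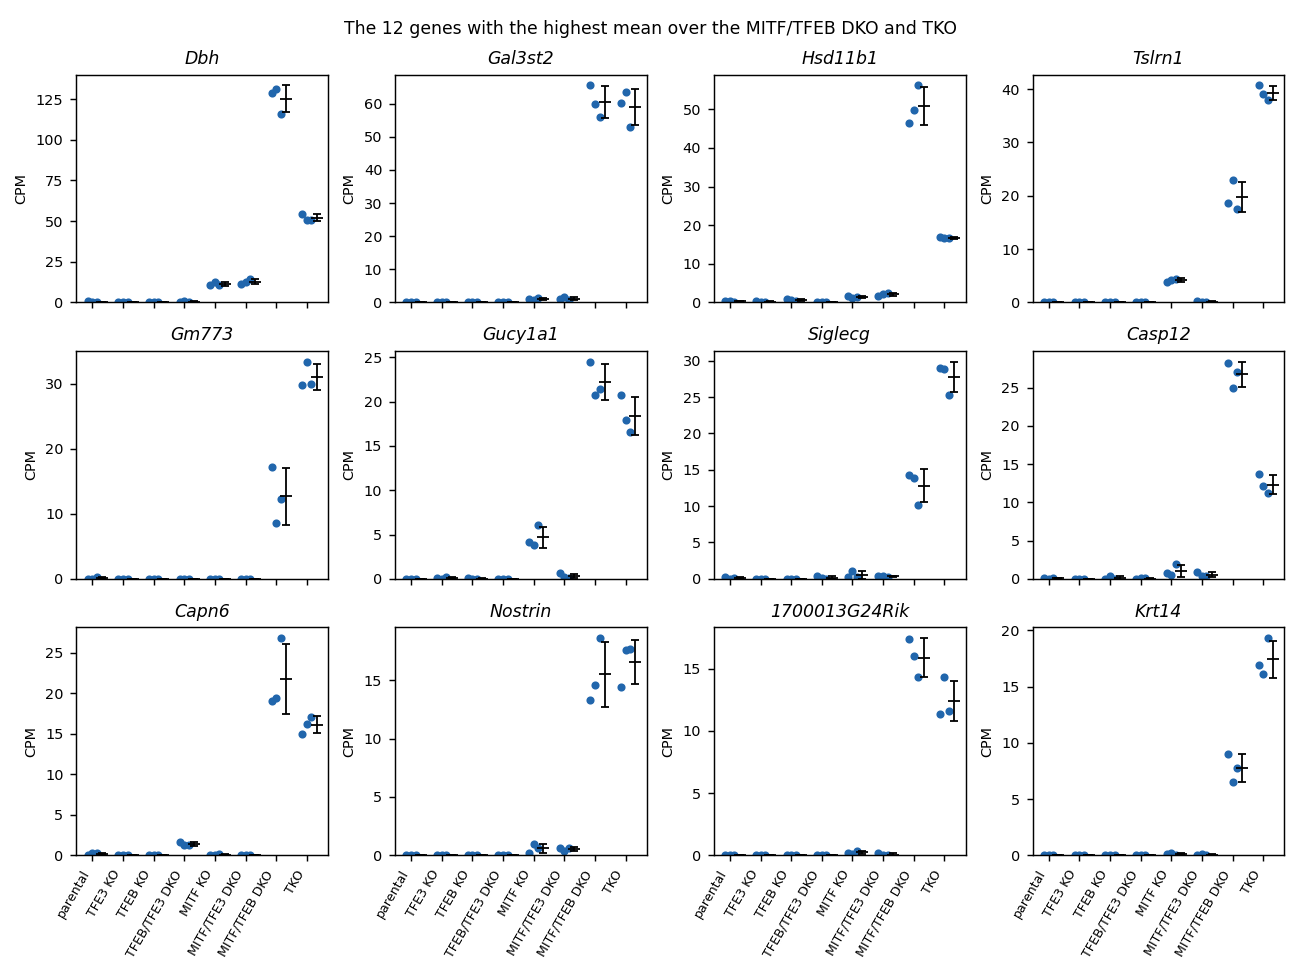
Level of the 12 members with the highest mean in the MITF/TFEB DKO and TKO, 1 panel per gene, with 1 point per library and, beside the points, the mean ± SD of each line (n = 3). Dbh stands at 11.2 CPM in the MITF KO, 12.8 CPM in the MITF/TFE3 DKO and 125 CPM in the MITF/TFEB DKO, Tslrn1 and Gucy1a1 are at 4.15 and 4.67 CPM in the MITF KO and below 1 CPM in the MITF/TFE3 DKO, and Gm773 and Krt14 stay near 0 in both.

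Transcription factors and nuclear receptors made up the next group. Erg, an ETS factor of endothelial and haematopoietic cells, had no read in any of the 18 libraries outside the MITF/TFEB DKO (12.4, 9.19 and 8.68 CPM) and TKO (4.48, 4.71 and 3.23 CPM). Pecam1 and Vwf, the endothelial markers in the table, were at a mean of at most 0.3 CPM in both of those lines, while they summed to between 10.4 and 10.7 CPM in the parental libraries. Wt1, a zinc finger factor of kidney and mesothelium, had means of 5.77 and 5.57 CPM and at most 0.0628 CPM elsewhere. Esr1, the estrogen receptor, was at 4.86, 5.63 and 8.64 CPM and at 6.34, 6.18 and 5.2 CPM, and already at 1.65 to 2.67 CPM in the MITF KO and 2.21 to 3.9 CPM in the MITF/TFE3 DKO.

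Thrb, a thyroid hormone receptor, was at 3.76, 1.85 and 3.9 CPM in the MITF/TFEB DKO and at 3.24, 3.09 and 2.75 CPM in the TKO. It had no read in the MITF/TFE3 DKO and was at 0.199, 1.3 and 1.54 CPM in the TFE3 KO. Zfp985, a KRAB-type zinc finger gene from a cluster of near-identical copies on chromosome 4, was the one member whose peak lay outside the chosen lines: 17.6, 18.4 and 19.7 CPM in the MITF/TFE3 DKO, 2.41 to 2.94 CPM in the MITF KO, and 5.37 to 5.84 CPM and 5.65 to 6.28 CPM in the lines without MITF and TFEB. Reads of such copies can be shared, so its level is uncertain.

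Ligands and receptors made up a further group. Artn, a ligand of the GDNF family that signals through RET, was at 4.16, 3.61 and 4.74 CPM in the MITF/TFEB DKO and at 8.78, 8.23 and 10.1 CPM in the TKO, and Il34, a ligand of the CSF1 receptor, went the other way at 8.51, 6 and 4.78 CPM and 2.66, 3 and 3.48 CPM. Both were above 0.3 CPM in the TFEB KO and in TFEB/TFE3 DKO cells, at means of 0.481 and 0.727 CPM for Artn and 0.628 and 0.68 CPM for Il34. Il13ra1, a chain of the interleukin-4 and interleukin-13 receptors, was at 7.84, 8.4 and 10.3 CPM and at 9.58, 8.46 and 9.76 CPM, after 2.17 to 2.65 CPM in the MITF KO. Il6ra, the interleukin-6 receptor, had means of 5.87 and 3.58 CPM, with 1.29 CPM in the MITF KO and 1.24 CPM in the MITF/TFE3 DKO.

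Notch1, a receptor for Delta and Jagged ligands, was at 6.59, 6.67 and 5.41 CPM in the MITF/TFEB DKO and 5.72, 5.28 and 5.38 CPM in the TKO, close to its 2.95, 4.9 and 5.44 CPM in the MITF/TFE3 DKO. Among G protein-coupled receptors, Mrgprf was at 6.47, 6.76 and 7.64 CPM and 4.99, 7.08 and 6.06 CPM, and Gpr17, a receptor of oligodendrocyte precursors, at 5.57, 6.09 and 6.05 CPM and 4.3, 3.8 and 2.62 CPM. Neither exceeded 0.109 CPM in the other 18 libraries. The potassium channel gene Kcnk10 shared this pattern with means of 6.39 and 6.97 CPM and at most 0.0497 CPM elsewhere.

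Gpr17 lies opposite Lims2, whose mean went from 1.45 CPM in the parental cells to 65 and 41.3 CPM in the MITF/TFEB DKO and TKO, and the lncRNA Gm35546 (6.93 and 4.82 CPM) lies opposite Tgfb2, which went from 16.3 to 93.1 and 80.5 CPM. Whether counting used the strand is not stated, so reads of these pairs cannot be told apart, and both members are uncertain. In all, 16 members shared the end of their transcript, where the 3′ reads fall, with another annotated gene, and for 6 of them that gene was in the table.

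Matrix, adhesion and protease genes left after the exclusions by name included Hapln1, a link protein of hyaluronan and aggrecan, which was at 15.1, 11.7 and 14.7 CPM in the MITF/TFEB DKO, at 5.5, 4.09 and 5.03 CPM in TKO libraries, 3.76 to 4 CPM in the MITF KO and 8.9 to 10.5 CPM in the MITF/TFE3 DKO. It was thus the only member besides Zfp985 with a higher mean in the MITF/TFE3 DKO (9.72 CPM) than in the TKO (4.87 CPM). Htra1, a secreted serine protease, was at 6.43, 6.38 and 6.73 CPM and at 12, 11.3 and 10 CPM. Cpa6, a carboxypeptidase, was at 5.29, 10.7 and 7.48 CPM and at 5.32, 5.23 and 6.92 CPM, and already at 3.17 to 5.72 CPM in the MITF KO.

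Olfm3, an olfactomedin-domain glycoprotein of brain and retina, was at 7.8, 8.73 and 11.3 CPM in the MITF/TFEB DKO, at 4.48, 4.9 and 5.03 CPM in TKO libraries and at most 0.218 CPM elsewhere. Vasn, a membrane protein that binds TGF-beta, was at 4, 6.88 and 8 CPM and at 3.1, 4.71 and 4.73 CPM, with overlapping genes Dnaja3 and Coro7 near level across the lines. The remaining means in the MITF/TFEB DKO and TKO were 7.58 and 4.36 CPM for the protease inhibitor Serpinb1a, 5.8 and 4.22 CPM for the cathepsin Ctso, and 4.73 and 8.6 CPM for the adhesion molecule Kirrel3.

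Metabolic enzymes were spread over lipid, nucleotide and sugar pathways. Mogat1, a monoacylglycerol acyltransferase, was at 5.29, 6.8 and 9.79 CPM in the MITF/TFEB DKO and 12.7, 15.2 and 15.1 CPM in the TKO, and at 2.97 to 3.41 CPM and 3.61 to 3.89 CPM in the MITF KO and MITF/TFE3 DKO. Enpp3, an ectonucleotidase, was at 5.41, 3.4 and 4.38 CPM and at 2.3, 3.23 and 3.78 CPM. Gfpt2, which opens the hexosamine pathway, had means of 4.25 and 5.55 CPM, and the flavin monooxygenase Fmo5 3.51 and 3.37 CPM.

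Plekha6, a pleckstrin homology domain protein, was at 9.92, 8.35 and 8.48 CPM in the MITF/TFEB DKO, at 9.07, 9.61 and 8.6 CPM in TKO libraries, 2.5 to 4.79 CPM in the MITF KO and 0.125 to 1.22 CPM in the MITF/TFE3 DKO. Lyz2, the lysozyme of macrophages and neutrophils, was at 2, 3.9 and 3.66 CPM and at 2.84, 3.28 and 3.66 CPM. 3 of the 8 leukocyte markers were in the table, and Lyz2 left aside they summed to between 0.225 and 2.2 CPM in parental libraries, between 2.73 and 3.69 CPM in those of the MITF/TFEB DKO and between 2.51 and 2.76 CPM in those of the TKO. Their part in the levels of Lyz2 and Siglecg was not tested. Bpifc, of the lipid-binding BPI family, was at 4.47, 9.57 and 9 CPM and at 5.5, 5.42 and 8.34 CPM.

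Nedd9, a scaffold of focal adhesions linked to melanoma spread, was at 3.49, 3.15 and 2.75 CPM in the MITF/TFEB DKO and 3.21, 3.04 and 2.75 CPM in the TKO. Dnm3, a dynamin, was at 3.45, 2.22 and 3.34 CPM and at 2.84, 3.61 and 2.97 CPM. Means in the 2 lines were 4.92 and 5.04 CPM for Ankrd1, a muscle ankyrin protein and YAP target and 4.27 and 3.08 CPM for Cep126, a centrosomal protein. For A630077J23Rik they were 5.36 and 8.27 CPM, and for the lncRNA Gm7967 4.71 and 5.99 CPM. In the 2 lines 42 of the 51 genes were at 3 CPM or more in all 6 libraries.

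Schwann cell markers outside the chosen set were also higher in the lines without MITF, while neuron markers had another order of lines. The Schwann cell markers in the table, 7 of the 8 listed, summed to between 401 and 433 CPM in the parental libraries, between 2277 and 2302 CPM in the MITF KO, between 3678 and 3879 CPM in the MITF/TFEB DKO and between 3138 and 3195 CPM in the TKO, most of it S100b and Mbp. The 3 of 8 neuron markers in the table (Tubb3, Map2 and Rbfox3) summed to between 130 and 146 CPM in parental libraries, 390 and 405 CPM in MITF KO libraries, 215 and 254 CPM with MITF and TFE3 absent, 414 and 476 CPM with MITF and TFEB absent, and 734 and 787 CPM in the TKO, most of it Tubb3. Their part in the levels of the 51 genes was not tested. In such bulk libraries a change in all cells and a change in the share of expressing cells cannot be told apart.

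Without MITF, 19 of the 51 genes were higher and none lower, when the MITF KO was compared with the mean of the TFE3 KO, TFEB KO and TFEB/TFE3 DKO (limma on log2(CPM + 1), fold change of at least 2 and unadjusted p under 0.05, the study's threshold). This is 37.3% of the members. Of all 12010 genes 3.42% were called higher, and of the 230 other silent genes 13.9% (32 genes). All 19 also had an adjusted p under 0.05. The median difference was 0.65 on the log2 scale against 0.0019 over all genes, and 1.88 as a log2 ratio when both sides were set to no less than 3 reads. Genes so close to 0 with MITF can hardly be lower without it, so the direction is partly set by the choice. The chosen lines share the MITF KO ancestor, so a raised share here and in the MITF/TFE3 DKO is partly set by it too. Acta2 and Col6a3 aside, the other silent genes missed the level required in the MITF/TFEB DKO or TKO. Their share is thus no neutral background.

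Dbh differed most in this comparison, by 3.52 ± 0.148 (SE) on the log2(CPM + 1) scale, followed by Gucy1a1 (2.42 ± 0.126), Cpa6 (2.37 ± 0.16), Tslrn1 (2.35 ± 0.0975) and Hapln1 (2.21 ± 0.124). The adjusted p values from limma were 3.3e-15, 2.0e-13, 2.3e-11, 2.8e-15 and 8.0e-13. These are a hormone-synthesis enzyme, a nitric oxide sensor, a carboxypeptidase, a lncRNA and a matrix link protein. The other 14 called genes, with differences between 1.12 and 2.03, were Mogat1, Plekha6, Notch1, A630077J23Rik, Zfp985, Il13ra1, Kirrel3, Cep126, Ankrd1, Gfpt2, Enpp3, Serpinb1a, Esr1 and Dnm3. The count depended on the treatment of low values: with a pseudocount of 0.25 in place of 1 it was 32, with a pseudocount of 5 it was 1, and edgeR on the recovered reads called 42, where it called 6.43% of all genes.

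The same question asked in cells without TFE3 gave 15 genes higher and none lower in the MITF/TFE3 DKO than in the TFE3 KO (29.4% of the members, against 5.38% of all genes and 14.3%, or 33, of the other silent genes). The median log2 ratio with both sides at no less than 3 reads was 1.85. Zfp985 led with 4.22 ± 0.178 (adjusted p from limma 3.3e-14), ahead of Dbh (3.78 ± 0.181, 1.4e-13), Hapln1 (3.42 ± 0.152, 4.9e-14), Notch1 (2.41 ± 0.173, 1.2e-10) and Mogat1 (2.26 ± 0.157, 6.5e-11). Except for Zfp985 these had no read in the TFE3 KO. Against 3 reads per library Dbh was at least 85.5-fold higher, Hapln1 at least 65-fold, Notch1 at least 29.6-fold and Mogat1 at least 25.3-fold.

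The other genes called higher in the MITF/TFE3 DKO were Cpa6, Enpp3, Kirrel3, Hsd11b1, Il13ra1, A630077J23Rik, Esr1, Lyz2, Artn and Ankrd1, with differences of at most 1.64. With pseudocounts of 0.25 and 5 the genes called higher were 31 and 3. By edgeR 36 were higher, against 8.84% of all genes, and 1 was lower, Thrb. In limma Thrb fell by 0.94 on the log2 scale (adjusted p 1.7e-03), short of the fold threshold. Dbh, Hapln1, Notch1, Mogat1, Cpa6, Zfp985, Enpp3, Kirrel3, Il13ra1, A630077J23Rik, Esr1 and Ankrd1 were called in both comparisons. The MITF/TFE3 DKO descends from the MITF KO line, so the 2 comparisons share the clone.

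Lists of genes by function, members and others together, held calls in both directions, beside shares of all genes of 3.42% higher and 3.06% lower without MITF, then 5.38% and 2.62% without MITF and TFE3. Of the 81 neuronal, synaptic and catecholamine genes in the table, 13 were called higher without MITF and 4 lower, and 9 and 5 in the MITF/TFE3 DKO against the TFE3 KO; Dbh was the member among them that was called, and Olfm3 the one that was not. Of 87 matrix genes, 8 were higher and 7 lower, then 6 and 6, with Hapln1 called in both, Serpinb1a in the first alone and Htra1 in neither. Of 136 surface receptors, 10 were higher and 8 lower, then 15 and 10, with Notch1 and Il13ra1 called in both and Il6ra in neither. Of 82 secreted ligands, 8 were higher and 5 lower, then 15 and 1, with Artn called in the second alone and Il34 in neither. Of 42 G protein-coupled receptors, 3 were higher and 5 lower, then 3 and 4, with no call for Gpr17 or Mrgprf.

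Counts of the immune and interferon list were one-sided, in opposite directions in the 2 comparisons. Of 149 immune and interferon genes 5 were higher and 53 lower in the MITF KO, then 32 and 1 in the MITF/TFE3 DKO against the TFE3 KO, with Lyz2 called higher in the second alone and Siglecg in neither. Of 129 cytoskeleton and muscle genes, 17 were higher and 5 lower, then 23 and 3, with Ankrd1 called in both and Krt14 and Capn6 in neither. Of 291 listed metabolic enzymes, 17 were higher and 10 lower, then 33 and 16, with Enpp3 called in both, Hsd11b1 in the second alone and Fmo5 in neither. Mogat1 and Gfpt2, described above with the metabolic enzymes, were not on this list. Of 193 homeobox and developmental factors, 12 were higher and 14 lower, then 15 and 11, with Esr1 called in both and Erg in neither. Wt1 and Thrb were not on that list.

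With TFE3 absent on top of MITF, the genes that differed did so in both directions. Between the MITF/TFE3 DKO and the MITF KO, 2 members were higher, against 3.39% of all genes, and 3 were lower, against 1.67%. Zfp985 was higher by 2.42 (limma, adjusted p 3.1e-10) and Hapln1 by 1.13 (5.3e-06). Tslrn1 fell by 2.17 (1.1e-12), Gucy1a1 by 2.09 (3.4e-10) and Plekha6 by 1.41 (1.5e-05). For the first 2 of these 3 genes the 3 libraries without TFE3 were all below 1 CPM and those with it all above 3 CPM. The median difference over the 51 genes was -0.041. A pseudocount of 0.25 gave 5 higher and 6 lower, a pseudocount of 5 gave 1 and 0, and edgeR gave 5 and 10.

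In cells with MITF, 1 member was called when TFE3 was absent on top of TFEB. Capn6 was at 1.68, 1.21 and 1.24 CPM in the TFEB/TFE3 DKO, but at 0, 0.0914 and 0 CPM in the TFEB KO, a difference of 1.20 ± 0.138 (limma, adjusted p 2.2e-05), and no member was called lower. Over all genes 0.15% were higher and 0.0416% lower. This count too depended on the treatment of low values, with 3 higher and 1 lower at a pseudocount of 0.25, 0 at a pseudocount of 5, and 8 and 3 by edgeR. The TFEB/TFE3 DKO was the only line besides the MITF/TFEB DKO and the TKO in which Capn6 exceeded 0.3 CPM.

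The effect of TFE3 loss differed between cells without MITF and cells without TFEB for 5 members, by an interaction term in the same fit. Zfp985 was the one with a more positive change without MITF (2.39, adjusted p from limma 2.9e-07), where 4.73% of all genes were. Tslrn1 (-2.21, 1.1e-09), Gucy1a1 (-2.04, 3.8e-07), Plekha6 (-1.80, 1.0e-04) and Capn6 (-1.31, 4.1e-05) were more negative, where 3.2% of all genes were. By edgeR the difference for Gucy1a1 was -0.99, short of the fold threshold, and it called 5 members more positive and 10 more negative. A pseudocount of 0.25 gave 5 and 9, and a pseudocount of 5 gave 1 and 0. For Tslrn1, Gucy1a1, Plekha6 and Zfp985 the change lay in the cells without MITF, and for Capn6 in the cells without TFEB. Tslrn1, Gucy1a1 and Plekha6 were at 0, 0.0355 and 0.033 CPM in the TFEB KO, where a fall could not be seen. Their negative terms thus largely restate the fall without MITF. Most genes of the table are not so near 0, so the shares of all genes are no neutral background.

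**Figure D4:**
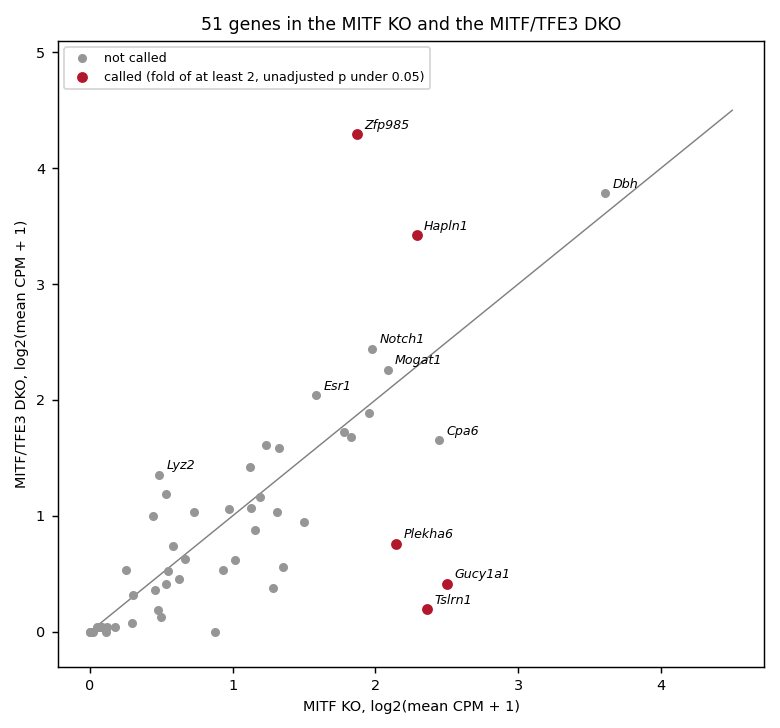
Mean level of the 51 genes in the MITF/TFE3 DKO against the MITF KO as log2(mean CPM + 1), 1 point per gene, red where the difference was called. Zfp985 and Hapln1 lie above the line of equal levels, Tslrn1, Gucy1a1 and Plekha6 below it, and the other 46 were not called.

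Without MITF and TFEB, the additional loss of TFE3 did not turn off the group, which the rule already required to be expressed in both lines. The ratio of the TKO mean to the MITF/TFEB DKO mean had a median of 0.955 and ran from 0.329 to 2.45. The TKO libraries were all below those of the MITF/TFEB DKO for 12 members, all above for 10 and overlapping for 29, while 16.5% of all genes were all below and 16.8% all above. The lowest ratios were those of Hsd11b1 (0.329), Hapln1 (0.353), Erg (0.41) and Dbh (0.416), and the highest those of Gm773 (2.45), Krt14 (2.25), Siglecg (2.17) and Artn (2.17). Of the 12 lower genes 7 were at least 2-fold lower, and of the 10 higher genes 4 at least 2-fold higher.

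The lower set included the enzymes, matrix proteins and factors Capn6, Casp12, Dbh, Erg, Gpr17, Hapln1, Hsd11b1, Il34, Il6ra, Olfm3 and Serpinb1a. The higher set was A630077J23Rik, Artn, Gm773, Gm7967, Htra1, Kirrel3, Krt14, Mogat1, Siglecg and Tslrn1. Tslrn1 and Hapln1 had opposite orders in the 2 settings: loss of TFE3 went with a lower Tslrn1 and a higher Hapln1 when TFEB was present, and with a higher Tslrn1 and a lower Hapln1 when it was absent. The second of these contrasts was used by the rule and was not tested.

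**Figure D5:**
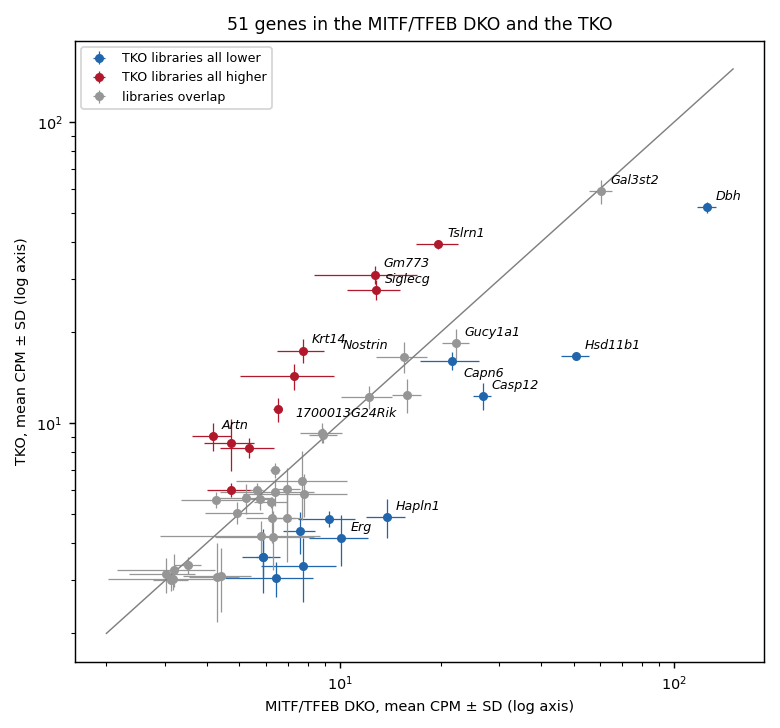
Mean level of the 51 genes in the TKO plotted against that in the MITF/TFEB DKO on log axes, with error bars of 1 SD (n = 3 libraries per line) and colour by whether the libraries overlap. The 12 genes with all TKO libraries lower include Dbh and Hsd11b1, the 10 with all higher include Tslrn1, Gm773, Siglecg and Krt14, and 29 overlap.

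Genes lay close to the thresholds on both sides. Thrb, Bpifc and Vasn passed the parental threshold with 0.271, 0.282 and 0.297 CPM, while Rhox2d, Srgap3 and Cpa4 missed it with 0.316, 0.339 and 0.339 CPM. At the other threshold Nedd9 (3.13 and 3 CPM in the 2 lines), Dnm3 (3.01 and 3.14 CPM) and Thrb (3.17 and 3.03 CPM) were just inside, and Krt81 (2.8 and 3.8 CPM), Ttn (2.93 and 6.64 CPM) and Plekhb1 (4.11 and 2.95 CPM) just outside. In the parental cells 14 members had no read in any library and 27 had at most 3 reads in each.

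Of the 51 genes 50 had a position in the annotation, 47 of them protein coding and 3 lncRNAs. Chromosome 1 held 9, chromosome 3 held 6, and chromosomes 2, 4, 10 and X held 4 each. Pairs within 1 Mb of each other included Ctso and Gucy1a1, 132 kb apart on chromosome 3, and Notch1 and Dbh, 649 kb apart on chromosome 2. Dbh and Notch1 also shared expression in the MITF KO and the MITF/TFE3 DKO, whereas Ctso stayed below 0.4 CPM in the MITF KO, where Gucy1a1 was at 4.67 CPM.

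Levels of neighbouring genes were compared as well. Over the 100 nearest genes with a mean of at least 5 CPM, the median log2 difference from the parental cells, relative to that of all genes, was at least 0.3 higher in both lines without MITF and TFEB around 15 members and at least 0.3 lower around 2, Kcnk10 and Ankrd1. It was in neither class around 33. The 9 members of chromosome 1 had values between 0.338 and 0.684 in the MITF/TFEB DKO and between 0.317 and 0.742 in the TKO. Their part in the members' levels was not tested. Of the 629 genes within 1 Mb of a member, 75 (11.9%) were at least 2-fold higher in both lines, against 9.43% of all genes.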

How the data were processed

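RNA of 8 B16F10-luc2 lines (3 libraries each) was sequenced from the 3′ end (QuantSeq Forward) on an Illumina NovaSeq. The submitters' processing notes name FastQC 0.11.9, Trim Galore 0.6.5, cutadapt 2.10, STAR 2.7.8a, mm39 and edgeR. The counting tool, annotation, strand setting and gene filter are not given in the sources used here. The deposited table holds a signal: CPM divided by a normalization factor (0.925 to 1.07), still called CPM here. Whole reads were recovered for 99.9997% of values to within 0.1 reads, so that depth is known (18300902 to 26667877 reads). The table had been planned for as plain CPM. The same test was kept. Genes silent in the parental cells could pass a filter on low values only through other lines.

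Members were found by the rule on line means. Members and gene lists were chosen with earlier results of these data known. All genes were tested in 1 limma fit (3.58.1, R 4.3.3, trend) of log2(CPM + 1) on line over 24 libraries, two-sided, with Benjamini-Hochberg adjustment over 12010 genes. Such folds understate the change of low genes. On the recovered reads, edgeR (4.0.16, quasi-likelihood) was the alternative. Calls used the study's threshold, a 2-fold difference with an unadjusted p under 0.05. Floors (3 reads per library) cover counting error only, while the SE and SD measure the spread between libraries. Members are named, except 3 that are counted but not otherwise reported here. Values in every library are given for the 12 highest, the 2 highest of each list with 2 or more, the 5 largest differences per test and direction, the 4 highest and 4 lowest TKO ratios, and those nearest the thresholds. Promoters were read from GRCm39 with GENCODE vM39. The fit was tested on simulated data, with changes planted only in genes above a minimum mean level. That test does not cover genes nearly silent in a reference line. Alternatives were other pseudocounts, normalizations, thresholds, edgeR, each library left out and the replicate number as a block. Same-numbered libraries did not deviate together, so the numbers were not taken as pairs. The columns of CPM were the only values used.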

Additional observations from a re-analysis of the deposited data

Results flagged for a closer look

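5 members had an effect of TFE3 loss that differed between cells without MITF and cells without TFEB, by the interaction term of the limma fit. The change was more positive for 1 (1.96% of the members, against 4.73% of all genes) and more negative for 4 (7.84%, against 3.2%). In the TFEB KO 44 of the 51 genes were at a mean of at most 0.3 CPM and could hardly fall there. Tslrn1, Gucy1a1 and Plekha6 were among them. The shares of all genes are thus no neutral background. The difference of the log2 changes was -2.21 for Tslrn1, -2.04 for Gucy1a1, -1.80 for Plekha6, -1.31 for Capn6 and 2.39 for Zfp985. In the MITF KO the means of Tslrn1, Gucy1a1 and Plekha6 were 4.15, 4.67 and 3.43 CPM, and in the MITF/TFE3 DKO 0.146, 0.332 and 0.694 CPM. The mean of Zfp985 was 2.66 CPM in the first and 18.6 CPM in the second line. The difference for Capn6 lay in the TFEB/TFE3 DKO (1.37 CPM) against the TFEB KO (0.0305 CPM). By edgeR the difference for Gucy1a1 was -0.99, short of the fold threshold. Each line is 1 clone, so genotype and clone cannot be told apart.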

How the results depend on the processing

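The counts of calls depended on how low values were treated. With a pseudocount of 0.25, the genes called higher were 32 in the MITF KO against KO lines with MITF and 31 (1 lower) in the MITF/TFE3 DKO against the TFE3 KO, 5 (6 lower) against the MITF KO, 3 (1 lower) in the TFEB/TFE3 DKO against the TFEB KO, and 5 (9 lower) by interaction. In the same order a pseudocount of 5 gave 1, 3, 1 (0 lower), 0 and 1 (0 lower), and edgeR gave 42, 36 (1 lower), 5 (10 lower), 8 (3 lower) and 5 (10 lower). Quantile normalization gave 1 lower (Thrb) in the MITF/TFE3 DKO against the TFE3 KO. Leaving out each library gave 0 to 1 lower there (1, Thrb, without TFE3 KO replicate 1) and 1 to 2 higher by interaction (2 without TFEB/TFE3 DKO replicate 2, adding Hapln1, or without MITF/TFE3 DKO replicate 1, adding Hsd11b1). With the replicate number as a block the counts remained at 19, 15, 2 (3 lower), 1 and 1 (4 lower), and the mean correlation of same-numbered libraries was 0.022, against -0.013 for others.

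Membership came to 27 genes with a parental mean of at most 0.1 CPM, 27 with at least 5 CPM in both lines and 31 with every library past the thresholds. A mean of at least 2 CPM counted 13 members in the MITF KO and 12 in the MITF/TFE3 DKO, and one of at least 5 CPM counted 1 and 3. Of 375 recomputed values for 21 differences of named genes, 359 stayed on their side of the threshold, 16 did not and 0 reversed; 15 of the 16 came from the pseudocount of 5, and the other from edgeR (Gucy1a1 by interaction, -0.99). Depth limits statements below 0.109 to 0.163 CPM.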
